A study of Mus musculus with 6 samples.

Results

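The olfactomedins are a small family of genes named for a protein domain, and 7 of them were followed here in cultured mouse cerebellar granule neurons (CGNs): *Olfm1*, *Olfm2*, *Olfm3*, *Olfml1*, *Olfml2a*, *Olfml2b* and *Olfml3*. They were found by symbol among the 55341 genes of each count table, and all 7 were among the 16729 genes left by a filter on low counts. The family was chosen from its measured difference between GSK-126 and DMSO in these same libraries, so its values are given as a description, with no p-value for any of the 7 genes. GSK-126 is an inhibitor of EZH2, the enzyme of the PRC2 complex that trimethylates lysine 27 of histone H3 (H3K27me3), and DMSO is its vehicle. Each group had 3 libraries, numbered as replicates 1 to 3, and each replicate was a culture from the pooled cerebella of CD1-IGS litters at P6 to P8. Per the study's methods, both groups were grown as granule neuron precursors purified on Percoll and were given AraC against dividing cells, and GSK-126 or DMSO was added at DIV3 (the third day in vitro) with RNA taken at DIV5. The sample titles name CGNs, the treatment, DIV3 and the replicate number, and the labels give the source as cerebellar tissue. The details of the culture and the harvest at DIV5 therefore rest on the methods. No genotype differed between the groups.

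Olfactomedin proteins are mostly secreted glycoproteins whose C-terminal olfactomedin domain folds into a beta-propeller. The noelins, encoded by *Olfm1*, *Olfm2* and *Olfm3*, are made by neurons, assemble through disulfide bonds and bind AMPA-type glutamate receptors at synapses, and OLFM1 also binds the Nogo receptor on axons. The olfactomedin-like proteins belong to the extracellular matrix and to non-neuronal cells more than to neurons: OLFML3 is a scaffold for the BMP antagonist chordin and is made by microglia in the brain, and OLFML2A and OLFML2B, also called photomedins, bind matrix proteoglycans.

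The start sites of *Olfm1* and *Olfm3* are shown because these were the noelins that were lower with GSK-126 in every pair of libraries, and because CpG-dense promoters are, as background, the usual sites of H3K27me3. RefSeq (GRCm38.p6) gave 11 start windows for the 7 genes, each of 300 bases with 250 before the start and 50 after it. In the windows below, written 5′ to 3′ on the gene's strand, the capitals mark CpG dinucleotides.
*Olfm1*, first start, chr2:28192843-28193142, plus strand: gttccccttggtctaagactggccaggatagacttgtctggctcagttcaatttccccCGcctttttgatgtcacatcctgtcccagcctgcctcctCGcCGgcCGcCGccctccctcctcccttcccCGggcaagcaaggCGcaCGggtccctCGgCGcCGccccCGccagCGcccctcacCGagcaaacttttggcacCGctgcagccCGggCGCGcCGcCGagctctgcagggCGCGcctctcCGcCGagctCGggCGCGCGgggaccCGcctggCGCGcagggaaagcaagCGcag
*Olfm1*, second start, chr2:28205439-28205738, plus strand: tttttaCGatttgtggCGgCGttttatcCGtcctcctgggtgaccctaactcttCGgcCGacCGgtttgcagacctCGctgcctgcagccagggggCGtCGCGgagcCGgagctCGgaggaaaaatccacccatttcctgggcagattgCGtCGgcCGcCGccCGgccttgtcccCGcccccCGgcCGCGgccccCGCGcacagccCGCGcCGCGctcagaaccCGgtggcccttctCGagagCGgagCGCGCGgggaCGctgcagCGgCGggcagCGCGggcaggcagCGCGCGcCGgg
*Olfm3*, first start, chr3:114903828-114904127, plus strand: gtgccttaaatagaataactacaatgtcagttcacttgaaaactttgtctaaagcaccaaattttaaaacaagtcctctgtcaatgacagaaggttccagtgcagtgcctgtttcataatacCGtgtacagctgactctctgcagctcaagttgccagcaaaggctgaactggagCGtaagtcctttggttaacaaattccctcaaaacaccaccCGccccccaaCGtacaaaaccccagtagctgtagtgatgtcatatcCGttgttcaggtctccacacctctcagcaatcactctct
*Olfm3*, second start, chr3:115080715-115081014, plus strand: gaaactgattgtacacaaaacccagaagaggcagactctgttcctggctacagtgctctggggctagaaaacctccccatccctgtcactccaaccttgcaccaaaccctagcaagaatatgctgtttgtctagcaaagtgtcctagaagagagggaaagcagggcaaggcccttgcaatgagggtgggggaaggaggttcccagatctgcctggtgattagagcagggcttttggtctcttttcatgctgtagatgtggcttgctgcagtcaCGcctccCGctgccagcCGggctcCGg
The *Olfm1* windows held 32 and 43 CpGs, more than 90.5% and 97.4% of all 32851 windows, in which the median was 7 and the quartiles were 3 and 20. The *Olfm3* windows held 5 and 4 CpGs, at the 38.0 and 31.4 percentiles. The noelin that differed most between the groups therefore had CpG-poor starts, and the noelin with the highest level had CpG-rich ones. These libraries are of RNA and hold no H3K27me3 values, and a link between CpG content and the differences was not tested. Among the other windows, *Olfm2* had 29, 5 and 31 CpGs at its 3 starts, *Olfml2b* had 25, *Olfml2a* 17, *Olfml3* 8 and *Olfml1* 3. Of the motifs searched on both strands, the NEUROD-type E-box CAGATG was in 17.2% of all windows and in those of *Olfml2b* and *Olfml3*. The ZIC-type motif CCTGCTG was in 10.5% of all windows and in the first and the third windows of *Olfm2*, and the cyclic AMP response element TGACGTCA was in 1.79% of all windows and in the third window of *Olfm2*, which also held TATAAA, found in 13.6% of all windows. None of these 4 motifs was in the windows of *Olfm1* or *Olfm3*, which says only that these letters are not there.

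*Olfm3* was also a gene for which the study designed a qPCR assay, and its primers show which part of the transcript that assay reads.
forward primer, chr3:115101972-115101991, exon 4: caacgggtcctcagcttaga
reverse primer, chr3:115120952-115120971, exon 5: ccgtcatccaagcaccaaat
Both primers matched all 3 *Olfm3* transcripts of the GENCODE M21 annotation (GRCm38) and enclosed 130 bases across the junction of exons 4 and 5, so the assay does not tell the start sites apart. The RNA-seq counts were summed over all exons of a gene and do not tell them apart either.

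The libraries held between 7407189 and 13092763 counts on genes. Levels are given as CPM, a library's counts divided by its depth in units of 1000000 counts after scaling by TMM factors. Replicate 2 of both groups stood apart from the other 4 libraries on the first principal component (46.4% of variance) and libraries with the same number deviated together from their group means. Libraries were paired by the replicate number in their titles, so the number was used as a block in the fit. Differences are also given within each pair of libraries. Against the other libraries of its group, replicate 2 had the highest summed CPM of 12 granule neuron markers (7941 with DMSO against 4863 and 5601, and 6143 with GSK-126 against 3784 and 4307). It had the lowest summed CPM of 10 microglial markers (411 with DMSO against 836 and 694, and 570 with GSK-126 against 1022 and 839). No marker of the 8 cell type lists examined was at 0 in all 6 libraries, so RNA with markers of glia, fibroblasts and vessel cells was present beside that of CGNs. In the fit with the block, none of 5 tested endothelial markers was called, 1 of 8 astroglial, 1 of 7 oligodendrocyte and 1 of 6 precursor and dividing-cell markers rose, and 3 of 7 markers of GABAergic neurons and Purkinje cells fell. Of all tested genes, 3.35% rose and 5.09% fell in that fit.

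*Olfm3* (chr3:114904078-115125722, plus strand), which encodes noelin 3, had the largest difference of the 7 genes. Its level with DMSO was 27.7, 60.3 and 28.0 CPM in replicates 1, 2 and 3, and with GSK-126 it was 9.47, 21.7 and 14.2 CPM. Every GSK-126 library was below every DMSO library, and in both groups replicate 2 was the highest. Averaged over the 3 libraries, DMSO gave 38.7 ± 18.8 CPM and GSK-126 15.1 ± 6.14 CPM (SD, n = 3). Within the pairs, the log2 ratios of GSK-126 to DMSO were −1.55, −1.48 and −0.98. The fitted log2 fold change was −1.35 (SE 0.14), a level of 39.3% of that with DMSO. The gene had 106 to 647 counts per library, so counting error was small beside the difference. It was the only one of the 7 whose groups did not overlap, where 4.72% of all tested genes were lower without overlap and 4.72% were higher.

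*Olfm1* (chr2:28192992-28230736, plus strand), which encodes noelin 1, the AMPA receptor partner that also binds the Nogo receptor, was the most abundant of the 7. With DMSO it was at 430 CPM in replicate 1, 867 CPM in replicate 2 and 519 CPM in replicate 3. With GSK-126 it was at 342, 634 and 368 CPM. Each GSK-126 library was below the DMSO library of its number, but the groups overlapped, because replicate 2 was far above the other libraries in both. The means were 605 ± 231 and 448 ± 161 CPM (SD, n = 3), a difference smaller than the spread between replicates. The log2 ratios within the pairs were −0.33, −0.45 and −0.50, with an SD of 0.087, which was small beside their size. The fitted log2 fold change was −0.43 (SE 0.069), or 74.5% of the level with DMSO.

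**Figure D1:**
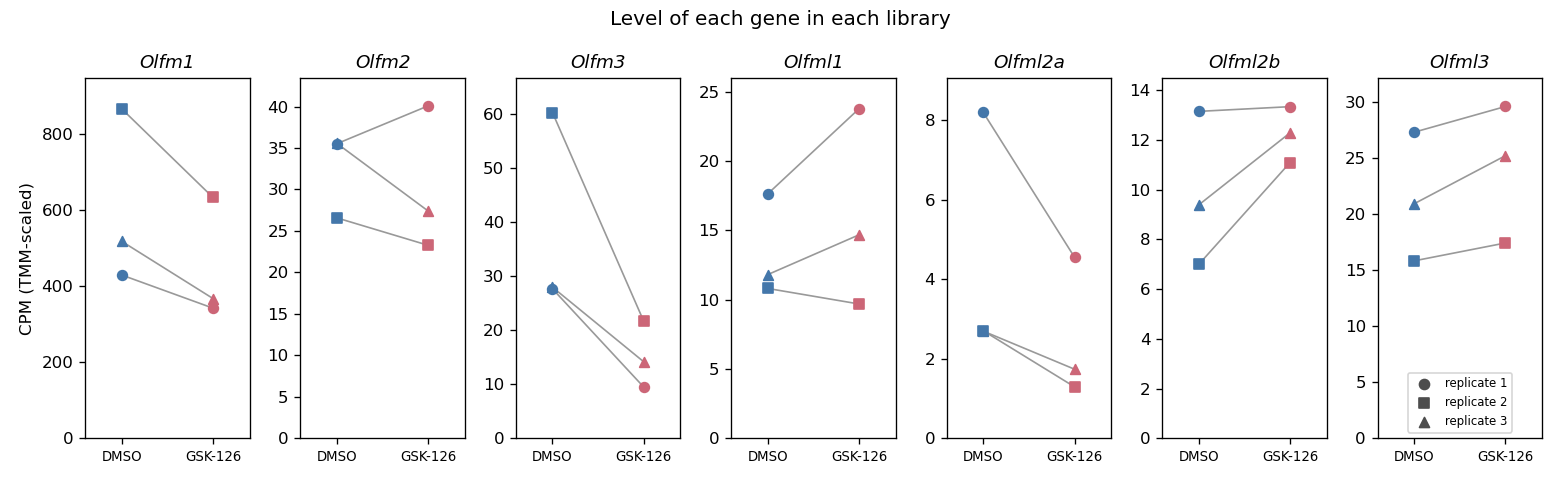
Level of each of the 7 genes in each library, in TMM-scaled CPM, with a panel and a scale from 0 for each gene. Lines join the DMSO and GSK-126 libraries of one replicate number. All 3 lines fall for *Olfm1*, *Olfm3* and *Olfml2a*, and for *Olfm3* alone the GSK-126 points, from 9.47 to 21.7 CPM, lie wholly below the DMSO points.

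*Olfm2* (chr9:20667690-20746349, minus strand) encodes noelin 2, the third of the noelins that bind AMPA receptors. Its level was 35.5, 26.6 and 35.6 CPM with DMSO and 40.1, 23.3 and 27.4 CPM with GSK-126. The groups overlapped and the pairs went in both directions, with log2 ratios of 0.17, −0.19 and −0.38. The fitted log2 fold change was −0.12 (SE 0.13), and without replicate 3 it was 0.0036. Unlike *Olfm1* and *Olfm3*, *Olfm2* was lowest in replicate 2 of both groups.

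Levels of different genes were compared per kilobase of exon. *Olfm1* made up 86.5%, 91.7% and 88.5% of the summed noelin level in DMSO replicates 1, 2 and 3 and 85.0%, 93.2% and 88.7% in the GSK-126 libraries. *Olfm1* was thus the main noelin transcript of these cultures with and without the inhibitor. *Olfm3* made up 4.01%, 4.59% and 3.44% of the sum with DMSO and 1.69%, 2.29% and 2.46% with GSK-126, so its share was lower in every GSK-126 library. The per-kilobase level of *Olfm1* was 21.6, 19.98 and 25.8 times that of *Olfm3* with DMSO and 50.2, 40.7 and 36.1 times with GSK-126. The share of *Olfm2* was 9.53%, 3.75% and 8.09% with DMSO and 13.3%, 4.56% and 8.81% with GSK-126.

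Among the olfactomedin-like genes, *Olfml2a* (chr2:38931978-38963753, plus strand), a photomedin gene, was at 8.19, 2.704 and 2.69 CPM with DMSO and at 4.55, 1.29 and 1.74 CPM with GSK-126. It was lower with GSK-126 in each pair, with log2 ratios of −0.85, −1.06 and −0.63, but the groups overlapped because replicate 1 was the highest in both. Only 12 and 13 counts lay behind the values of GSK-126 replicates 2 and 3, and the fitted log2 fold change of −0.84 had an SE of 0.33. The other photomedin gene, *Olfml2b* (chr1:170644532-170682789, plus strand), was at 13.2, 6.99 and 9.39 CPM with DMSO and 13.3, 11.1 and 12.3 CPM with GSK-126. Its pairs had log2 ratios of 0.021, 0.67 and 0.39 and its fitted log2 fold change was 0.34 (SE 0.19), so the 2 photomedin genes lay on opposite sides of 0.

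*Olfml3* (chr3:103722222-103738001, minus strand), the chordin scaffold made by microglia, was at 27.3, 15.9 and 20.9 CPM with DMSO and at 29.6, 17.4 and 25.2 CPM with GSK-126. It was slightly higher with GSK-126 in each pair, by log2 ratios of 0.12, 0.14 and 0.27, while the groups overlapped almost wholly. The fitted log2 fold change was 0.17 (SE 0.13). *Olfml1* (chr7:107567446-107591094, plus strand), which encodes a secreted olfactomedin-like protein, was at 17.7, 10.8 and 11.8 CPM with DMSO and at 23.8, 9.69 and 14.7 CPM with GSK-126. Its pairs went in both directions, with log2 ratios of 0.43, −0.16 and 0.31 and a fitted log2 fold change of 0.21 (SE 0.17).

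**Figure D2:**
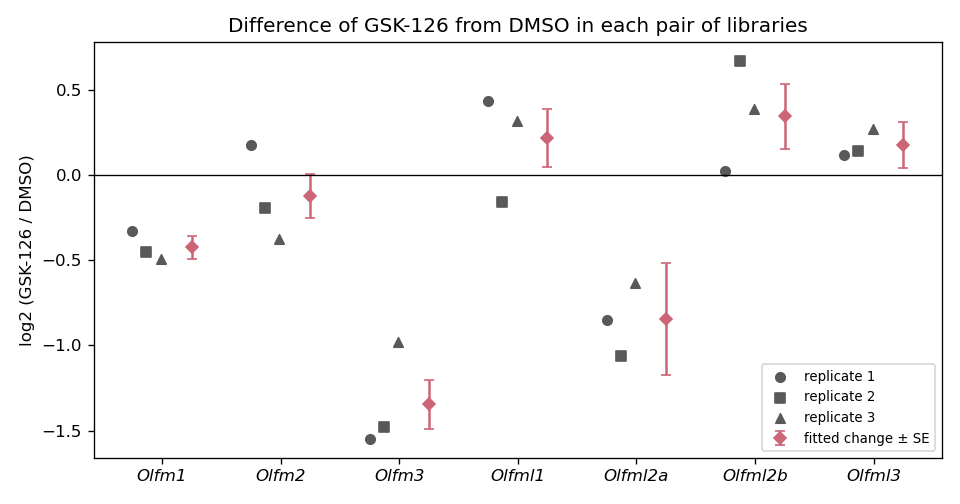
Log2 ratio of GSK-126 to DMSO for each gene in the 3 pairs of libraries (grey) and the change fitted over all 6 libraries with the replicate number as a block (red, ± SE). The 3 points of *Olfm3* lie between −1.55 and −0.98, and those of *Olfm2* and *Olfml1* lie on both sides of 0.

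Over the family, 3 genes were lower in all 3 pairs (*Olfm1*, *Olfm3* and *Olfml2a*), where 22.8% of all tested genes were, and 2 were higher in all 3 pairs (*Olfml2b* and *Olfml3*), where 19.5% of all tested genes were. With the replicate block, *Olfm1* and *Olfm3* were past an adjusted p of 0.05 on the lower side, as were 5.09% of all tested genes, and none of the 7 was on the higher side, where 3.35% were. With no replicate block, none of the 7 genes was called, nor was any of all tested genes in either direction (0%). The family was chosen on this contrast, so these counts only describe it. The 851 lower and 561 higher calls of all genes were 698 and 727 under upper-quartile scaling, which left the direction of each of the 7 genes as it was.

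In bulk RNA, fewer cells of a type and less RNA per cell cannot be told apart, so each gene was also set against cell type markers in the same library, an alternative chosen after the data were seen. The summed CPM of the granule neuron markers was lower with GSK-126 in each pair, by log2 ratios of −0.36, −0.37 and −0.38, and 8 of the 12 markers fell and 1 rose by edgeR's quasi-likelihood test with the block. *Olfm1* was at 8.84%, 10.9% and 9.26% of that sum with DMSO and at 9.05%, 10.3% and 8.54% with GSK-126. The mean log2 ratio of *Olfm1* over the pairs was then −0.055 (SD 0.079), against −0.43 for its own CPM, so *Olfm1* and the granule neuron markers were lower to a like degree. *Olfm3* was at 0.569%, 0.760% and 0.500% of the sum with DMSO and at 0.250%, 0.352% and 0.329% with GSK-126. Its mean log2 ratio relative to the sum was −0.97 (SD 0.32), so *Olfm3* was lower relative to this sum as well, in each pair. The summed markers of GABAergic neurons and Purkinje cells were also lower in each pair, by log2 ratios of −0.25, −0.28 and −0.60. Against them the mean log2 ratio was −0.049 (SD 0.14) for *Olfm1* and −0.96 (SD 0.50) for *Olfm3*. Neither result was therefore particular to the granule neuron markers. The granule neuron sum weighs abundant markers most, such as *Zic1* (fitted log2 fold change −0.31). Single markers ran from −1.95 (*Slc17a7*) through −1.19 (*Gabra6*) and −1.17 (*Etv1*) to 0.40 (*Tubb3*). *Olfm3*, at −1.35, lay within that range, so it was not lower than every granule neuron marker.

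*Olfml3* was set against the 10 microglial markers, of which the complement genes *C1qa*, *C1qb* and *C1qc* rose and none fell. The sum of the 10 markers ranged from 411 to 836 CPM with DMSO and from 570 to 1022 CPM with GSK-126, and it was higher with GSK-126 in each pair, by log2 ratios of 0.29, 0.47 and 0.28. *Olfml3* was at 3.27%, 3.86% and 3.02% of it with DMSO and at 2.90%, 3.06% and 3.01% with GSK-126. Its mean log2 ratio was then −0.17 (SD 0.16), against 0.17 for its own CPM, so its direction depended on this denominator. Against the oligodendrocyte markers the mean log2 ratio of *Olfml3* was 0.024 (SD 0.091), and the highest DMSO library was 1.07 times the lowest, where it was 1.28 times against the microglial markers. Against the 9 markers of fibroblasts, pericytes and smooth muscle, of which 8 were tested and 3 rose, the mean log2 ratio of *Olfml2b* was 0.19 (SD 0.44) and that of *Olfml1* was 0.026 (SD 0.24). The highest DMSO library was then 2.03 times the lowest for *Olfml2b* and 2.01 times for *Olfml1*. Against the oligodendrocyte markers it was 1.13 and 1.29 times, so the fibroblast list did not follow these 2 genes most closely. *Olfml2a* was highest in replicate 1 of both groups, where the summed astroglial markers were also highest. Against that sum its mean log2 ratio was −0.85 (SD 0.20), as for its own CPM. The part that cell makeup had in these results was not tested.

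**Figure D3:**
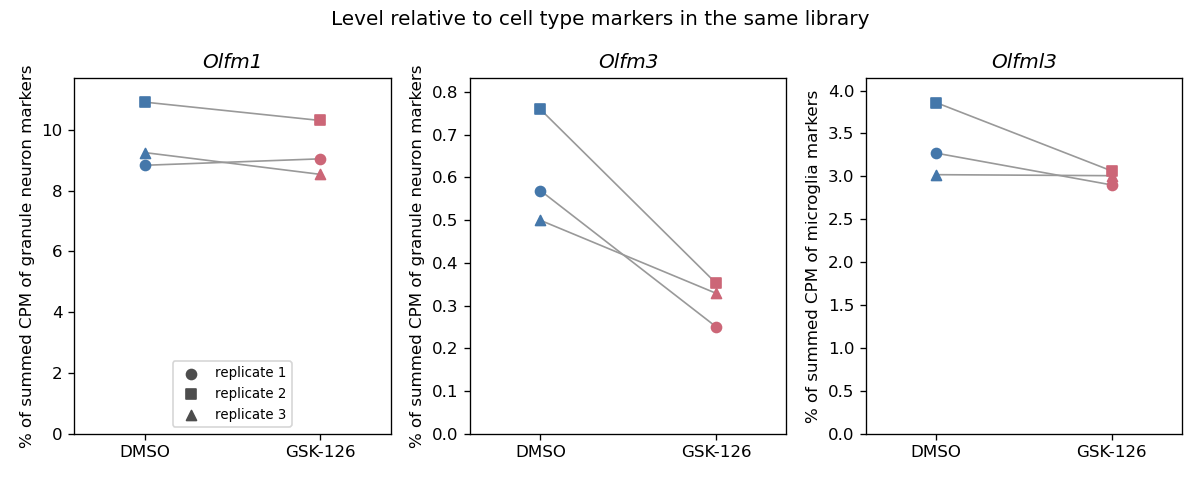
CPM of *Olfm1* and *Olfm3* as a percentage of the summed CPM of 12 granule neuron markers, and of *Olfml3* as a percentage of that of 10 microglial markers, in each library. Lines join libraries of one replicate number. The *Olfm1* percentages lie between 8.54 and 10.9 in both groups, whereas every *Olfm3* percentage with GSK-126 (0.250 to 0.352) is below every one with DMSO (0.500 to 0.760).

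Ordered by level per kilobase of exon with DMSO, *Olfm1* was first at 170 ± 65.1 CPM per kilobase (SD, n = 3), followed by *Olfm2* at 12.2 ± 1.94. *Olfml1* (7.97 ± 2.19) and *Olfm3* (7.83 ± 3.80) came next. Below them were *Olfml3* (3.47 ± 0.934) and *Olfml2b* (3.18 ± 1.00), and *Olfml2a* was the lowest at 0.812 ± 0.568. The ranges of the 3 libraries did not overlap between *Olfm1* and *Olfm2*, between *Olfm3* and *Olfml3*, or between *Olfml2b* and *Olfml2a*. The ranges of *Olfm2* and *Olfml1*, of *Olfml1* and *Olfm3*, and of *Olfml3* and *Olfml2b* overlapped. Within the DMSO libraries, *Olfm2* was above *Olfml1*, and *Olfml3* above *Olfml2b*, in all 3. With GSK-126 *Olfm1*, *Olfm2* and *Olfml1* were again the first and *Olfml2a* the last. Between them, *Olfm3* at 3.06 ± 1.24 CPM per kilobase stood beside *Olfml2b* (3.95 ± 0.363) and *Olfml3* (3.91 ± 1.00), with overlapping ranges. *Olfm1* was above at least 97.9% of all tested genes in CPM in every library. *Olfm3* was at the 53.3, 72.9 and 53.7 percentiles with DMSO and at the 30.3, 48.2 and 38.1 percentiles with GSK-126.

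**Figure D4:**
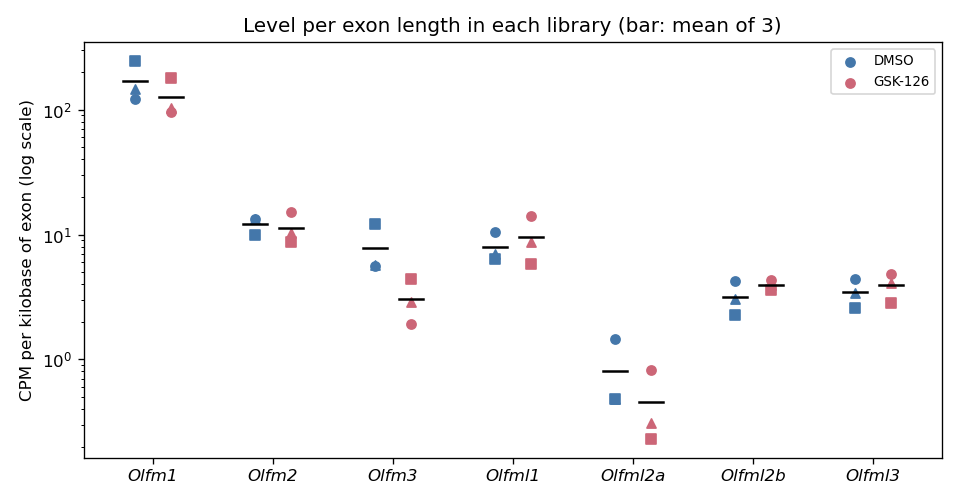
Level of each gene in CPM per kilobase of exon, on a log axis, in each library (circles, squares and triangles for replicates 1, 2 and 3) with the mean of 3 (bars). *Olfm1*, at 170 with DMSO and 126 with GSK-126, lies above all other genes, and *Olfm3* moves from 7.83 with DMSO to 3.06 with GSK-126.

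Across the 6 libraries, *Olfm1* and *Olfm3* had similar profiles on the log2 CPM scale (Pearson's r = 0.87), and *Olfm1* and *Olfml3* had opposite ones (r = −0.96). *Olfml1* and *Olfml3* also had similar profiles (r = 0.92). These are descriptions of 6 points that share the group difference and the difference of replicate 2 from the others. The genes most like *Olfm1* were *Elavl3*, which encodes a neuronal RNA-binding protein, *Camta1* and *Map7d2*, all at r above 0.99, and 628 genes were above 0.95. Those most like *Olfm3* were *Entr1*, *Rnf208* and *Cdh7*, the last a cadherin gene at a mean of 61.3 CPM in the DMSO group and 40.0 CPM in the GSK-126 group, and 283 genes were above 0.95. Their fitted log2 fold changes were −0.32 for *Entr1*, −0.53 for *Rnf208* and −0.62 for *Cdh7*, against −1.35 for *Olfm3*. Pearson's r compares the shape of profiles and not the size of a difference. *Olfml3* was most like *Mob3b*, *Fcgr2b*, which encodes an Fc receptor of myeloid cells, and *Gm4366*. *Olfml2a* was most like *Mybph*, *Slc4a4*, which encodes a bicarbonate transporter of astroglia, and *Khdrbs3*. *Olfm2* was most like *Trib2*, *Tm9sf1* and *Slc25a10*, *Olfml1* was most like *Ahcyl2*, *Gdf11* and *Fzd1*, and *Olfml2b* was most like *Sac3d1*, *Rplp2* and *Thrb*.

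Genes of the pathways in which the noelins act were read from lists not selected by direction. These lists were chosen with earlier results of these data known, so their calls and adjusted p-values only describe these libraries. In the edgeR quasi-likelihood fit (p adjusted by Benjamini-Hochberg over all genes), 5.09% of all tested genes fell and 3.35% rose. Of 18 tested genes of the AMPA receptor complex, 4 fell and none rose. The list's median log2 fold change was −0.18, where that of all tested genes was −0.0056. That median rested on the libraries and genes kept: it was −0.0050 without replicate 3, −0.097 without replicate 2, −0.037 with no filter and −0.098 with at least 10 counts in every library. *Frrs1l*, which encodes a factor for AMPA receptor assembly, fell by 0.66 on the log2 scale (adjusted p = 3.7e-05), and *Cacng2*, which encodes the auxiliary subunit stargazin, fell by 0.49 (adjusted p = 0.0011). The subunit genes *Gria2* and *Gria4* each fell by 0.28 (adjusted p = 0.017 and 0.019), while *Gria1* was at −0.039 (adjusted p = 0.82). Of 8 tested genes of the Nogo receptor complex, *Rtn4rl1* fell by 0.90 (adjusted p = 0.0019) and *Lingo1* by 0.27 (adjusted p = 0.028), none rose, and the median was 0.058. Leaving out replicate 1 left 2 calls of the AMPA receptor list, and leaving out replicate 1 or replicate 3 left 1 of the Nogo receptor list. *Cacng7*, *Cacng8* and *Rtn4r* were listed at 0 in all libraries, as were all 7 coding genes within 100 kb of *Rtn4r*, among them the widely used *Ranbp1*, so these zeros are not read as absence. The 7 olfactomedin genes had no exon shared with another gene.

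Other genes with an olfactomedin domain include the latrophilins, adhesion receptors for teneurins and FLRT proteins. *Adgrl1* fell by 0.31 on the log2 scale (adjusted p = 0.0067) and *Adgrl3* by 0.40 (adjusted p = 0.0039), and *Adgrl2* was at 0.20 (adjusted p = 0.16). *Gldn*, at 8 to 33 counts per library, was at 0.97 (adjusted p = 0.17), and *Olfm4* (at most 6 counts) and *Myoc* (14 counts in 1 DMSO library and at most 2 elsewhere) were too low to test. *Olfm5* was at 0 in every library, where 3 counts would be 0.229 to 0.405 CPM. The median of the 4 tested genes was −0.057, or −0.30 with at least 10 counts in every library, and without replicate 3 there was 1 call. The 11 genes listed as latrophilin adhesion partners were of the teneurin, FLRT and UNC5 families, so the list was wider than the teneurins and FLRT proteins named above. Of these 11 latrophilin partners, 4 fell and none rose, where 5.09% and 3.35% of all tested genes did, with a median of −0.092 (−0.15 without replicate 2). *Flrt1* fell by 1.23 (adjusted p = 0.010), *Unc5a* by 0.54 (adjusted p = 0.0035), *Tenm1* by 0.51 (adjusted p = 7.0e-04) and *Flrt3* by 0.45 (adjusted p = 0.047). DESeq2 with the block called 2 of them. Without replicate 2 there were also 2 calls, and *Flrt3* was at −0.21 (adjusted p = 0.44) and *Flrt1* at −0.85 (adjusted p = 0.24). Around OLFML3, 7 genes of the BMP and chordin pathway were tested, and their median of 0.035 turned to −0.24 without replicate 1 and was 0.28 without replicate 2. *Bmp4*, a ligand, rose by 0.59 (adjusted p = 0.044), *Bmp1*, a protease that cuts chordin, fell by 0.37 (adjusted p = 0.0016), and *Chrd* was at −0.13 (adjusted p = 0.74). The call of *Bmp4* was lost without replicate 1 and with DESeq2. The granule neuron marker sum and that of GABAergic neurons and Purkinje cells were lower with GSK-126 beside all of these neuronal calls. None of these calls was made without the replicate block.

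**Figure D5:**
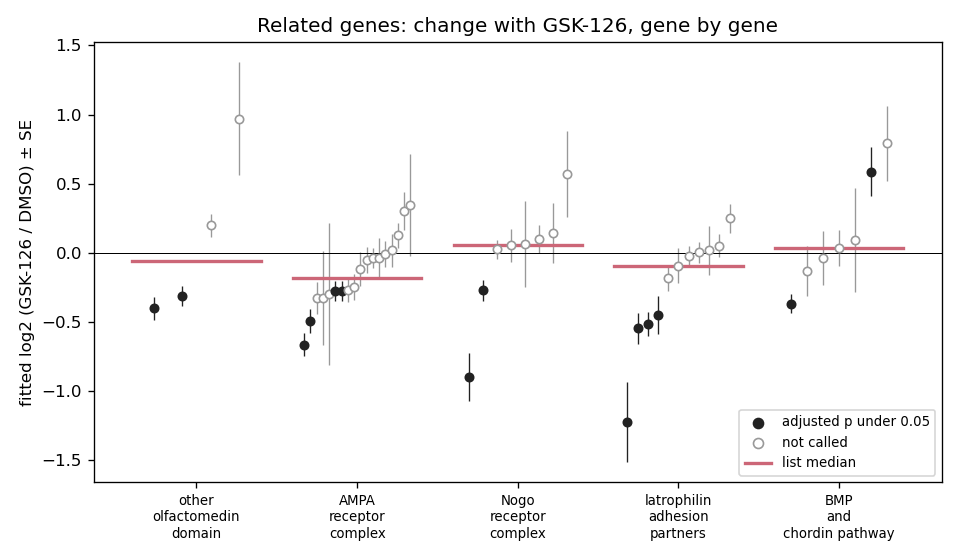
Fitted log2 fold change (± SE) of each tested gene in the 5 related lists, in order of size within a list, with filled points for an adjusted p under 0.05 in the fit with the replicate block and a red line at the list's median. Between 1 and 4 genes of each list were called lower, and 1 gene, *Bmp4*, was called higher.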

How the data were processed

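Per the study's methods and the submitters' processing notes, the authors trimmed paired reads of polyA-selected RNA (Trimmomatic 0.38), aligned them to GRCm38.p4 (mm10) with STAR 2.7.2b and counted reads on Gencode exons with HTSeq. The deposited values are these raw counts per gene of each library. The Gencode release and strand setting are not given in the sources used here. The 55341 symbols all match GENCODE M21, which gave coordinates and lengths. Lines naming no gene held 58.7% to 60.7% of the reads listed and were left out. All fits used R 4.3.3 and edgeR 4.0.16 (TMM, filterByExpr, quasi-likelihood test, Benjamini-Hochberg adjusted p under 0.05 over all tested genes), checked on simulated counts, with DESeq2 1.42.0 as an alternative. Replicate numbers 1 to 3 are given by the labels for each group, and by the methods a replicate is a culture of pooled litters. The number was a block in the main fit because libraries were paired by the number in their titles. Deviations from group means correlated at 0.56, 0.63 and 0.49 for libraries of the same number and at 0.0064 or less otherwise. Such deviations cancel within a group, so agreement at the same number in itself lowers the other correlations. Levels are CPM, pair ratios come from CPM without an added count, and likeness is Pearson's r of log2 CPM over genes with a mean log2 CPM of at least 3, naming the 3 most alike. The members and lists were chosen with earlier results of these data known. Alternatives were other scalings and filters, no block, DESeq2, a stricter threshold, coding-transcript lengths and leaving out each replicate. DESeq2 without the block, and levels relative to marker sums, were added after the data were seen. Counting error alone is not given as intervals. With the block, p-values rest on the spread of the GSK-126 to DMSO difference within pairs, not on the spread between cultures. The biological coefficient of variation was 9.74% with the block and 24.0% without it. The call of 1 microglial marker is not reported here.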

Additional observations from a re-analysis of the deposited data

How the results depend on the processing

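*Olfm1*, *Olfm3*, *Olfml1*, *Olfml2a*, *Olfml2b* and *Olfml3* kept their direction under every scaling, filter, tool and left-out replicate tried. *Olfm2* did not: it was at 0.0036 without replicate 3, within a range of −0.27 to 0.0036 over the left-out replicates. Over the same fits the log2 fold change was −0.46 to −0.39 for *Olfm1*, −1.51 to −1.24 for *Olfm3*, 0.099 to 0.38 for *Olfml1*, −0.92 to −0.77 for *Olfml2a*, 0.20 to 0.54 for *Olfml2b* and 0.13 to 0.22 for *Olfml3*. The replicate block decided the calls. With no replicate block, edgeR called 0 genes higher and 0 lower, although 665 had an unadjusted p under 0.05 (3595 with the block), so all 5 related lists had 0 calls. DESeq2 without the block, added after the data were seen, called 20 higher and 1 lower and 0 in these lists, and with the block it called 369 higher, 2 latrophilin partners lower and 0 BMP and chordin genes higher. Leaving out a replicate gave 337 to 558 genes called higher and 496 to 719 lower, and a threshold of 0.01 gave 242 and 474. Left-out replicates gave 2 to 3 calls lower in the AMPA receptor list, 1 to 2 in the Nogo receptor list, 2 to 4 among latrophilin partners, 1 to 2 among other olfactomedin domain genes, and 0 to 1 higher among BMP and chordin genes. Upper-quartile factors and total counts each gave 1 lower call in the Nogo receptor list, and no filter gave 2 higher among BMP and chordin genes. Per kilobase of the longest coding transcript, *Olfm2* with DMSO was at 16.2 CPM in place of 12.2, and *Olfm3* (8.32) was above *Olfml1* (7.97). By that length the lowest DMSO library of *Olfm2* (13.3) was above the highest of *Olfml1* (10.5), so their ranges no longer overlapped. The causes of these shifts were not tested. Depth limited *Olfml2a* most.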
